A study of Mus musculus with 11 samples.

Results

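Cytokine response genes outside the MAPK gene set were examined in primary mouse enteric glial cells treated with ATP. They were the genes of the authors' cytokine response table that appear in neither the table of MAPK regulation nor the table of gliosis genes. Of the 86 genes in the cytokine response table, 6 also had a row in the gliosis table and 14 in the MAPK table, 16 in either, and 8 more were left out by name because they belong to oxidative stress, early transcription factor, matrix or other groups. This left 62 genes with 132 transcripts, of 1967 genes in all 5 transcript tables. The names to be left out included Ifi205, Ifit3, Serpina3g and Cxcl12, which are given below beside the members. Of the 62, 55 also have a transcript in the authors' table of significant genes, so the ATP against control comparison had a part in choosing them. Their differences are therefore given as a description, without a test.

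Enteric glia, the non-neuronal cells of the gut's own nervous system, were grown from the muscle layer of the small intestine of adult mice of the strain labelled BL6, by way of neurospheres. They were treated with 100 µM ATP for 6 h (6 libraries) or left as controls (5 libraries), and RNA was read by a method that sequences the 3′ ends of transcripts. The sample titles set the groups, because the treatment label names ATP for all 11 libraries. Nothing in the labels says that the libraries of a group came from separate animals or cultures. The library codes fall into series that hold ATP libraries only, control libraries only or both, and since the files give group means and no value per library, series and treatment cannot be told apart.

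Cytokines act on cells through receptors that switch on Janus kinases and STAT factors or the NF-kB pathway. Interferons induce a large set of antiviral genes through STAT and IRF factors that bind the interferon-stimulated response element (ISRE) and the gamma-activated site (GAS). In glia, as in astrocytes of the brain, extracellular ATP is a danger signal that acts through P2 receptors and accompanies reactive gliosis. The annotation term behind the table gathers any gene that has been tied to a response to a cytokine, so it also holds ribosome, mitochondrial and cytoskeletal genes.

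Promoters are shown first for the members in which a script found the ISRE core, because 3 of these 4 genes are interferon-inducible members, the group lowest after ATP relative to control cells, and the other is the member with the highest signal. RefSeq gave a window from 250 bases before to 50 bases after the start for 53 of the 62 members, 71 windows in all, on the build GRCm38.p6. Capitals mark the ISRE core, searched as GAAA, any 2 bases and GAAA again, on either strand, so that the reverse complement reads TTTC, any 2 bases and TTTC.
Ifit1: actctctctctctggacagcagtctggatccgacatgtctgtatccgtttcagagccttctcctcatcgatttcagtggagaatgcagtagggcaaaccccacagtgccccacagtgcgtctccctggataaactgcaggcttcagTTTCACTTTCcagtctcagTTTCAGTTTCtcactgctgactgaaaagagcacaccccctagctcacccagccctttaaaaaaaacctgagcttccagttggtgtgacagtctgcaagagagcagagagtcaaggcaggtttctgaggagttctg
Irgm1: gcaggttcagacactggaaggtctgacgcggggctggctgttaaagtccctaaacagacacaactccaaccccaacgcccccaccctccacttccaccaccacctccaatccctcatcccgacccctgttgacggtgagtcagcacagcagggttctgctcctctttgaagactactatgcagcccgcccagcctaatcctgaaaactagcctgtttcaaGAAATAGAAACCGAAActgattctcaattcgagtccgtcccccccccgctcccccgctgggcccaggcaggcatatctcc
Tgtp1: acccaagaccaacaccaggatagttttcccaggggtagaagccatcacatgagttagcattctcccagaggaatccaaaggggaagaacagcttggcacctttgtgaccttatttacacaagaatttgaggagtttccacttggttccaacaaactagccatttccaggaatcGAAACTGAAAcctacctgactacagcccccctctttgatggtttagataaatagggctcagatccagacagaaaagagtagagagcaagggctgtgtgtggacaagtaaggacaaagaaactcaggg
Saa3: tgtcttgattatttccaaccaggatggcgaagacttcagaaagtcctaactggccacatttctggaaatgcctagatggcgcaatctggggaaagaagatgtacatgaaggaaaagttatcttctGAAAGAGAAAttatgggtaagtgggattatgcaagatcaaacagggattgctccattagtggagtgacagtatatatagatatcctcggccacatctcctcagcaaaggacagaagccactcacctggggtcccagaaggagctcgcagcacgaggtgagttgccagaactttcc
The windows lie at chr19:34640639-34640938 on the plus strand for Ifit1 and, on the minus strand, at chr11:48871371-48871670 for Irgm1, chr11:48992197-48992496 for Tgtp1 and chr7:46715627-46715926 for Saa3. Counted from the start, the first base of a match lay at -104 and -85 in Ifit1, at -30 and -24 (overlapping) in Irgm1, at -77 in Tgtp1 and at -125 in Saa3. The ISRE core was in 3.44% of all 32851 RefSeq promoter windows of this length, in 4 of the 71 member windows (5.63%) and in 3 of the 5 windows of interferon-inducible members. The windows of Ifi47 and Ifitm1 held no match to these letters. The GAS core TTCNNNGAA, searched on both strands, was in 8.3% of all windows and 8 of the 71 member windows (11.3%), with a match at -88 in Tgtp1. A match describes letters in a window and is not evidence of a bound site.

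Every level below is the authors' mean over a group, in a signal scaled for library depth, and is given for the transcript with the largest total of each gene. A difference is the ratio of the ATP mean to the control mean, and members at least 1.5-fold apart are counted as higher or lower. No error can be given for a mean, since the tables hold no value per library. Of the 62 members, 18 were higher after ATP (29.0%), 27 were lower (43.5%) and 17 lay within the limit. Over all 1875 genes of the depth-scaled tables, 46.2% were higher and 49.3% lower, mostly because all 2071 transcripts of the table of significant genes differ at least 1.5-fold, and nothing is read from the comparison. Among the 235 other genes of the motility and MAPK tables, 31.9% were higher and 40.0% lower. The median log2 ratio was -0.44 for the members, -0.47 for the 1875 genes and 0.13 for the 235 genes. Fewer cells of a type and less RNA per cell cannot be told apart in these cultures.

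The authors' scaling bears on the split. On 49 transcripts that the gliosis table gives as estimated counts, undoing the scaling multiplied the ratio of ATP to control by a median of 1.16 (range 0.977 to 1.27), a shift of 0.21 on the log2 scale. As deposited, 40.0% of the members past the limit were higher. With the shift undone, 21 members were higher and 19 lower, 52.5% higher. Only 1 leading transcript, that of Wnk1, then lay on the other side of equal means, while the 8 that came within the limit from below were A230050P20Rik, Gsn, Lrba, Nfat5, Nrp2, Pdia3, Rora and Stat5a. Srf, Hspd1 and Hyal1 went past the limit on the higher side, with log2 ratios of 0.66, 0.65 and 0.59. The 46 members with a mean of at least 10 in either group were 15 higher and 15 lower, and the 16 with lower means were 3 higher and 12 lower. With a minimum of 5, the 58 members left were 17 higher and 24 lower. The excess of lower members was thus absent at a minimum of 10 but not at 5. The lowest mean, that of Tgtp1 after ATP, corresponded to about 7.61 estimated counts per library.

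**Figure D1:**
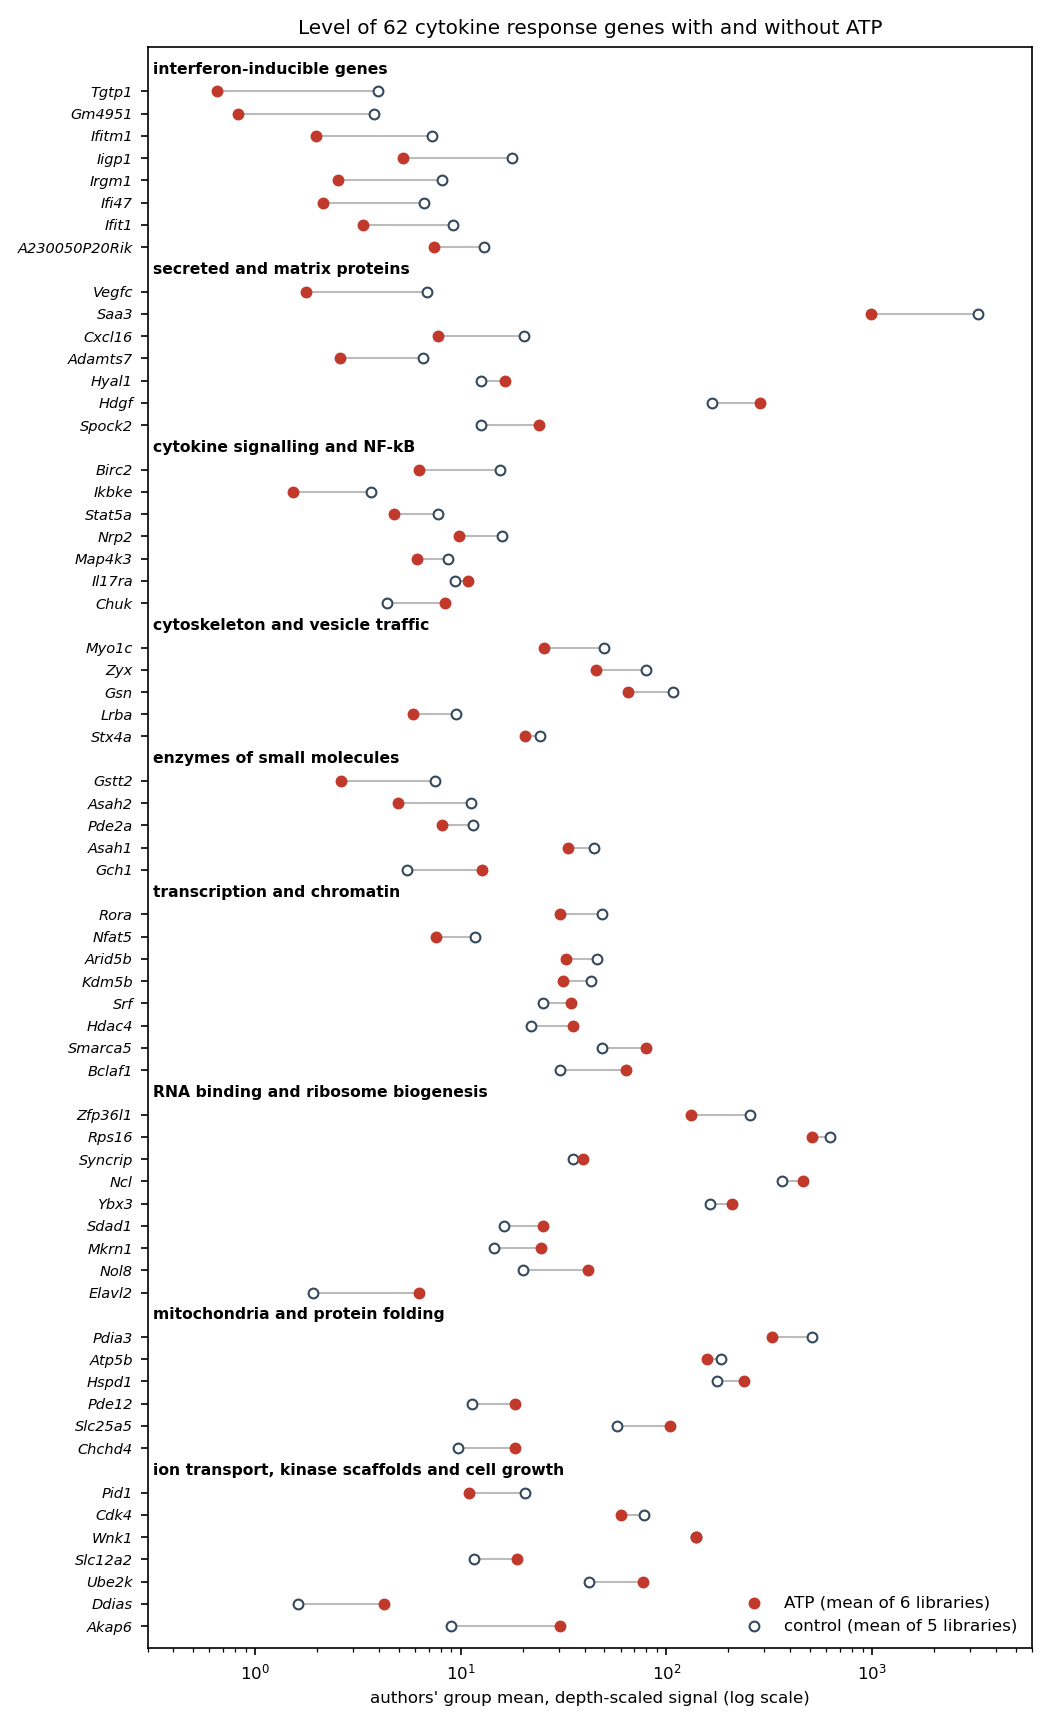
The authors' mean signal of the leading transcript of each of the 62 members, on a log scale, after ATP (filled red points, 6 libraries) and in control cells (open points, 5 libraries), grouped by role and without error bars, since no value per library was given. Red points lie left of the open ones in all 8 interferon-inducible genes, and both points coincide for Wnk1.

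All 8 interferon-inducible members were lower after ATP, 7 of them at least 2-fold, with a median log2 ratio of -1.72. This was the lowest median of the 9 role groups, which were drawn up with the ratios known. Each of the 8 genes had a single listed transcript. Immunity-related GTPases, which attack the vacuoles of intracellular pathogens in the mouse, made up most of the group. Tgtp1 had means of 0.650 after ATP and 3.96 in control cells, 6.10-fold lower. Of the last 300 bases of its transcripts, 79.2% of the 50-base stretches also occur in Tgtp2 or Gm12185, so the value cannot be assigned to Tgtp1 alone. For Gm4951, which belongs to the same family, the means were 0.829 and 3.81, 4.59-fold lower. Both genes were detected at the edge of the range, and with 1 added to each mean they were 3.01-fold and 2.63-fold lower.

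Iigp1, another of these GTPases and the member of the group with the highest control signal, had means of 5.26 after ATP and 17.8 in control cells, 3.38-fold lower. Irgm1, which restrains the other GTPases from acting on the cell's own membranes, stood at 2.53 and 8.13, 3.22-fold lower. Ifi47 stood at 2.13 and 6.66, 3.12-fold lower. The remaining members are antiviral effectors of other families. Ifitm1, a membrane protein that hinders virus entry, had means of 1.98 and 7.27, 3.67-fold lower. Ifit1, which binds viral RNA that lacks the host's cap marks, had means of 3.36 and 9.16, 2.73-fold lower. The member nearest to the limit was A230050P20Rik, also named Shfl in RefSeq, whose product hinders ribosomal frameshifting in viral messages, with means of 7.44 and 12.9, 1.74-fold lower.

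A list of 62 interferon-inducible genes had 15 with a row in the depth-scaled tables, and all 15 were lower. Over all 1875 genes of these tables, 49.3% were lower. The 7 that are not members included Ifi205 (8.19 after ATP and 44.4 in control cells), Ifi27l2a (2.99 and 12.6), Ifi44 (0.878 and 2.72) and Ifit3 (3.85 and 11.1). Stat2, a transcription factor of the interferon response, was 2.23-fold lower, and the RNA sensors Ifih1 and Ddx58 were 2.06-fold and 1.94-fold lower. The other 47 genes have no depth-scaled row, so the count does not describe the whole list. Most depth-scaled rows are of genes that the authors listed for a difference of at least 1.5-fold. The lists were also chosen with earlier results of these data known, so a shared direction is a description only. Both limits hold for the counts of every list below. The immunoproteasome subunits Psmb8 and Psmb9, whose rows in the gliosis table were not picked for a difference in these cells, stood at 81.3 and 121 estimated counts and at 10.7 and 13.9, which put them 1.49-fold and 1.30-fold lower on values that are not depth-scaled. With the median depth factor applied, they were 1.72-fold and 1.51-fold lower. The factor ranged from 0.977 to 1.27 between transcripts, so Psmb9, close to the limit, cannot be placed on either side of it.

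Markers of other cells differed as well. Of 10 fibroblast markers, the 3 with a depth-scaled row were all lower after ATP, and their summed signal was 857 after ATP and 2930.05 in control cells. Col3a1 made up most of this sum (826 and 2870), beside Postn (29.2 and 52.1) and Col1a2 (2.06 and 8.18). Dcn, which is listed only in estimated counts, was 2.29-fold lower. The 2 of 9 smooth muscle markers with a row (Synpo2 and Lmod1) summed to 3.40 and 17.4, and the 4 of 11 neuronal markers with a row summed to 214 and 108, higher after ATP. Uchl1 made up most of the neuronal sum (155 and 82.1). None of the 8 endothelial markers had a row, and of 14 macrophage markers only Cd68 did, with 43 estimated counts after ATP and 22.6 in control cells. Among 11 enteric glial markers only Gfap had a row. It is listed as higher after ATP, with 359 and 204 estimated counts for its leading transcript, but its deposited totals match the group means only with ATP and control exchanged, so its direction is not used. The other markers have no listed value, and the part of any of these cells in the differences of the members was not tested.

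Secreted and matrix proteins held the member with the highest signal. Saa3, the acute-phase serum amyloid A that mice make outside the liver, had means of 986 after ATP and 3279 in control cells, 3.32-fold lower. Its other 2 transcripts stood at 491 and 1834 (3.74-fold lower) and at 2.53 and 6.07 (2.40-fold lower), so all 3 lay on the same side. Of the 19 acute-phase genes listed, 16 had no depth-scaled row. The 3 with a row were all lower, Serpina3g with means of 4.0 and 40.4 and Saa1 with 2.95 and 10.6. In estimated counts, which are not depth-scaled, the acute-phase genes C3, Serpina3n and Cp were 2.92-fold, 2.45-fold and 2.70-fold lower.

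Cxcl16, a chemokine that is made as a membrane protein and shed, had means of 7.77 after ATP and 20.3 in control cells, 2.61-fold lower. The chemokines Cxcl12 (27.4 and 106) and Ccl8 (2.57 and 9.90) were lower as well, and they and Cxcl16 were the only 3 of 35 listed chemokines with a depth-scaled row. The gliosis table gave other chemokines in estimated counts and on both sides. Cxcl2, which attracts neutrophils, had 22.9 after ATP and 1.79 in control cells, 12.8-fold higher on a control mean of few counts. Cxcl1 had 206.5 and 110.8, 1.86-fold higher. With the median depth factor applied, Cxcl2 and Cxcl1 were 11.1-fold and 1.61-fold higher. Ccl7 was 1.44-fold lower (1.66-fold with the median depth factor applied) and Ccl2 1.03-fold lower, so the chemokines listed did not share a direction.

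Vegfc, the growth factor of lymphatic vessels, had means of 1.78 after ATP and 6.85 in control cells, 3.86-fold lower. Nrp2, a co-receptor for this factor and for semaphorins, stood at 9.81 and 15.9 in its leading transcript, 1.62-fold lower, while its other 2 transcripts lay within the limit. Adamts7, a metalloproteinase that cleaves matrix proteins, had means of 2.59 and 6.53, 2.52-fold lower. The members of this group that were higher had other roles. Hdgf, a growth factor found largely in the nucleus, stood at 284 and 166, 1.71-fold higher, and Spock2, a testican proteoglycan, at 24.1 and 12.6, 1.91-fold higher. Hyal1, a hyaluronidase, was within the limit in its leading transcript (16.4 and 12.6) and 2.48-fold higher in another (5.50 and 2.21), but 67.6% of the stretches at its transcript ends also occur in Naa80 or Hyal3.

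Of the 7 members that carry cytokine signals inside the cell or receive them, 1 was higher, 4 were lower and 2 lay within the limit. Birc2, a ubiquitin ligase that marks the NF-kB-inducing kinase for destruction, had means of 6.26 after ATP and 15.6 in control cells, 2.48-fold lower, although another of its 3 transcripts was 1.21-fold higher and the sum over all 3 was 1.52-fold lower. Ikbke, a kinase that activates interferon regulatory factors, stood at 1.53 and 3.68, 2.40-fold lower. Stat5a, a transcription factor downstream of many cytokine receptors, stood at 4.74 and 7.74, 1.63-fold lower, and 8.30% of the stretches at its transcript ends also occur in Stat5b.

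On the higher side of this group, Chuk, the alpha subunit of the IkB kinase, had means of 8.40 after ATP and 4.39 in control cells, 1.91-fold higher. Map4k3, a kinase upstream of JNK, was 1.40-fold lower (6.16 and 8.63). Il17ra, the receptor subunit shared by IL-17 cytokines, had 2 transcripts that parted: the leading one stood at 10.9 and 9.35, and the other at 3.88 and 10.4, 2.68-fold lower. Their sum was 14.8 and 19.8, 1.34-fold lower, on the other side from the leading transcript. On the list of 31 genes of NF-kB and IL-17 signalling, 9 had a row, 4 higher and 3 lower, with Traf6 (8.93 and 5.52), Nfkbib (25.2 and 14.9) and Cyld (15.8 and 8.67) higher and Map3k14 (0.706 and 1.99), the kinase that Birc2 marks, lower. The JAK-STAT list had a row for 3 of 23 genes, Stat2 and Stat5a lower and Socs7, of the family that restrains cytokine receptors, at 53.5 and 24.2, 2.21-fold higher.

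**Figure D2:**
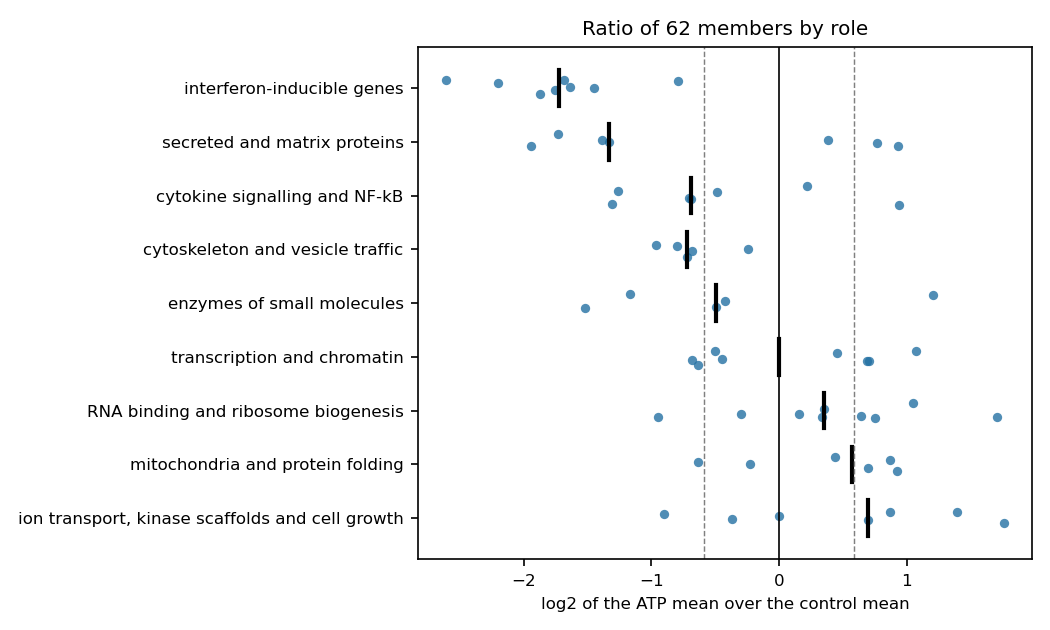
Log2 of the ATP mean over the control mean for the leading transcript of each member, 1 point per gene, with the median of each role group as a black bar and dashed lines at 1.5-fold in either direction. The group medians run from -1.72 for interferon-inducible genes to 0.70 for ion transport, kinase scaffolds and cell growth.

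The 5 cytoskeletal and vesicle genes all had lower means after ATP, 4 of them past the limit. With the depth scaling undone, Gsn and Lrba lay within the limit (log2 ratios of -0.51 and -0.47) and Zyx lay close to it (-0.59). Myo1c, an unconventional myosin that links membranes to actin, had means of 25.4 after ATP and 49.6 in control cells, 1.95-fold lower. Zyx, the focal adhesion protein zyxin, stood at 45.7 and 79.5, 1.74-fold lower, and Gsn, the actin-severing protein gelsolin, at 65.4 and 108, 1.65-fold lower. Lrba, which sorts vesicle cargo, stood at 5.89 and 9.46 in its leading transcript, 1.61-fold lower. Another Lrba transcript was 1.22-fold higher, and the sum over all 3 was 1.34-fold lower, within the limit. Stx4a, a plasma membrane syntaxin, was 1.19-fold lower in its leading transcript (20.5 and 24.3) and 2.41-fold higher in the other (3.82 and 1.59).

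Srf, the transcription factor that drives many actin genes, was itself 1.37-fold higher (34.3 and 25.0). Of 26 genes on a list of SRF and the actin cytoskeleton, 10 had a row, 9 were lower and none was higher past the limit. Over all 1875 genes, 46.2% were higher and 49.3% lower. The 16 listed genes without a depth-scaled row are not described by this count, and the list was chosen with earlier results known. Fhl2 (12.7 after ATP and 52.7 in control cells), Myl9 (6.69 and 24.6), Vcl (6.43 and 22.1) and Cnn2 (31.7 and 90.3) were the genes lowest relative to control cells. The smooth muscle and fibroblast markers given above lay on the same side, and their part was not tested.

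Enzymes of small molecules were 1 higher and 2 lower of 5. Gch1, which catalyses the first and rate-limiting step towards tetrahydrobiopterin, the cofactor of nitric oxide synthases, had means of 12.7 after ATP and 5.51 in control cells, 2.31-fold higher. Gstt2, a glutathione transferase, stood at 2.61 and 7.47, 2.86-fold lower. Asah2, the neutral ceramidase, stood at 4.98 and 11.2, 2.25-fold lower. Asah1, the acid ceramidase of lysosomes, was 1.34-fold lower in its leading transcript (33.2 and 44.5) and 1.55-fold lower in the other. Both ceramidases thus lay on the lower side, and of 25 sphingolipid genes 4 had a row, with Ugcg (29.7 and 64.6) lower and Sphk1 (21.2 and 13.2) higher. Pde2a, a phosphodiesterase of cyclic nucleotides, stood at 8.13 and 11.4, but 90.9% of the stretches at its transcript ends also occur in Gm45837.

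Transcription and chromatin genes were 3 higher, 2 lower and 3 within the limit. Rora, a nuclear receptor, had means of 30.5 after ATP and 48.8 in control cells, 1.6-fold lower. Nfat5, the factor of the response to osmotic stress, stood at 7.55 and 11.7 in its leading transcript, 1.55-fold lower. Another Nfat5 transcript was 1.15-fold higher and another 2.46-fold lower. The sum over all 3 was 1.38-fold lower, within the limit. Bclaf1, a nuclear protein of RNA processing, stood at 63.5 and 30.2 in its leading transcript, 2.10-fold higher. This transcript held 28.2% of the summed total, and the sum over all 6 was 1.53-fold higher. Smarca5, the motor of ISWI chromatin remodelling complexes, stood at 79.9 and 48.9, 1.63-fold higher, and the histone deacetylase Hdac4 at 35.3 and 21.9, 1.61-fold higher. Arid5b and the histone demethylase Kdm5b were 1.42-fold and 1.37-fold lower, within the limit.

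Of the 9 RNA-binding and ribosome biogenesis members, 4 were higher, 1 was lower and 4 lay within the limit. The share that was higher, 44.4%, was near the 46.2% over all 1875 genes of the depth-scaled tables. Elavl2, a neuronal-type protein that stabilises messages with AU-rich elements, had means of 6.24 after ATP and 1.91 in control cells, 3.26-fold higher. Zfp36l1, which binds the same kind of element and brings about decay of the message, stood at 132 and 255, 1.93-fold lower. These members, with opposite known roles on such messages, thus lay on opposite sides. Elavl3, a relative of Elavl2 that also counts among the neuronal markers, was 2.64-fold higher, and the neuronal markers summed higher after ATP as given above.

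Nol8, a nucleolar protein, had means of 41.7 after ATP and 20.2 in control cells, 2.07-fold higher. Sdad1, another nucleolar protein of ribosome assembly, stood at 25.3 and 16.2, 1.56-fold higher, and Mkrn1, an RNA-binding ubiquitin ligase, at 24.5 and 14.5, 1.68-fold higher. Ncl, nucleolin, had means of 460 and 363 and Ybx3, a cold shock domain protein, 208 and 163, both 1.27-fold higher and within the limit. Of 40 ribosome biogenesis genes, 18 had a row, 17 were higher and none was lower, beside 46.2% higher and 49.3% lower over all 1875 genes. Being past the limit was largely fixed by having a row, and the 22 genes without one are not described. The list was chosen with earlier results of these data known, so nothing is read from the comparison with all genes. Among the listed genes outside the members, Heatr1 was 2.88-fold, Nop56 2.37-fold, Rrp12 2.32-fold and Gar1 2.31-fold higher. On the list of 30 mRNA stability and translation factors, 13 had a row, 8 higher and 3 lower, with Pan3 (1.98 and 6.53) and Celf2 (1.06 and 3.47) lower beside Zfp36l1.

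Mitochondrial and protein folding members were 3 higher, 1 lower and 2 within the limit. Chchd4, which imports and oxidises proteins of the intermembrane space, had means of 18.4 after ATP and 9.71 in control cells, 1.89-fold higher. Slc25a5, an exchanger of ADP and ATP across the inner membrane, stood at 105 and 57.4, 1.82-fold higher. Pde12, a mitochondrial nuclease that also degrades the oligoadenylates made in the interferon response, stood at 18.4 and 11.3, 1.62-fold higher. Its direction was opposite to that of the interferon-inducible members.

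Hspd1, the mitochondrial chaperonin, was 1.35-fold higher (239 and 177), and 39.2% of the stretches at its transcript ends also occur in pseudogenes or other genes. Pdia3, a disulphide isomerase of the endoplasmic reticulum and not of mitochondria, was the lower member, with means of 326 and 508, 1.56-fold lower. Of 28 genes of mitochondrial import and chaperones, 7 had a row, 6 were higher and none lower, and 21 had no depth-scaled row. Over all 1875 genes, 46.2% were higher and 49.3% lower, and this list too was chosen with earlier results known. The import proteins Timm9, Tomm40, Timm50 and Timm10 were 1.86-fold, 1.75-fold, 1.71-fold and 1.52-fold higher.

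Akap6, a scaffold that ties protein kinase A to the nuclear envelope, had the largest ratio of the 62 leading transcripts, with means of 30.6 after ATP and 9.0 in control cells, 3.40-fold higher. Ddias, a protein that protects cells from death after DNA damage in human cells, stood at 4.26 and 1.62, 2.62-fold higher. Ube2k, a ubiquitin-conjugating enzyme, stood at 77.3 and 42.2 in its leading transcript, 1.83-fold higher, while the sum over its transcripts lay within the limit. Slc12a2, the sodium-potassium-chloride cotransporter that WNK kinases switch on, stood at 18.8 and 11.6, 1.62-fold higher. Of 19 genes of WNK signalling and the osmotic response, 5 had a row, 3 higher and 1 lower. On the higher side, Slc5a3, the myo-inositol transporter, stood at 13.4 and 7.5 and Cul3 at 44.8 and 29.5. The lower gene was Nfat5 by its leading transcript, although its sum over transcripts lay within the limit.

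On the other side, Pid1, an adaptor that dampens insulin signalling, had means of 11.0 after ATP and 20.5 in control cells, 1.87-fold lower. Cdk4, a kinase of the cell cycle, was 1.29-fold lower (59.9 and 77.5). Wnk1 itself was level in its leading transcript, with 139.8 and 140.0.

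**Figure D3:**
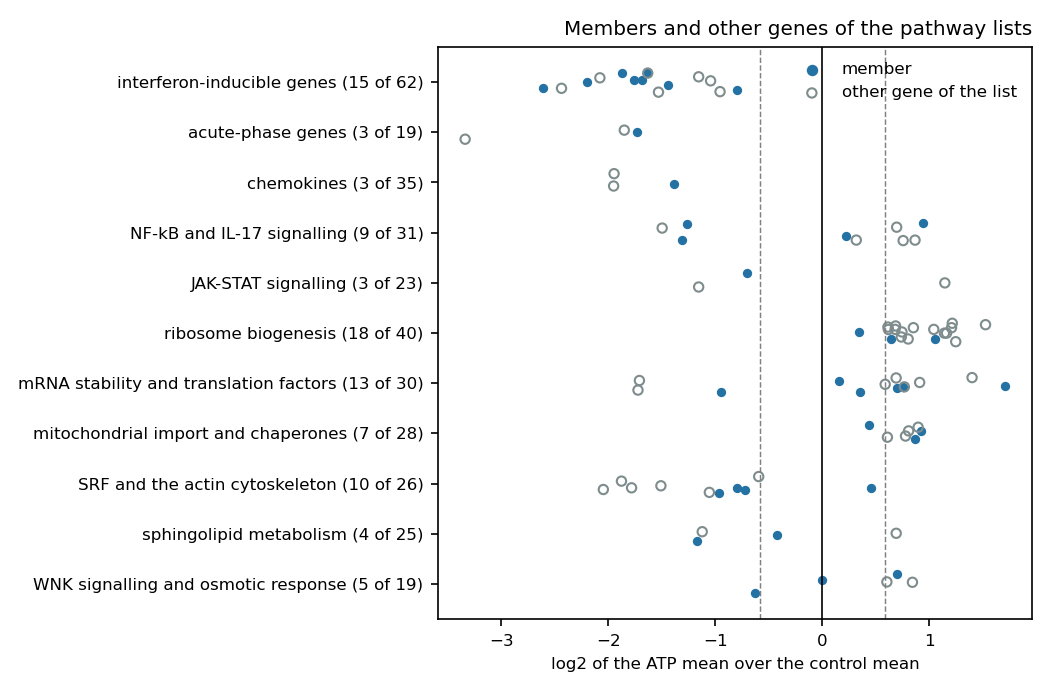
Log2 of the ATP mean over the control mean for the genes of each pathway list that have a depth-scaled row, members as filled points and other genes as open points, with dashed lines at 1.5-fold. Labels give genes with a row of genes listed, and the 15 interferon-inducible genes all lie left of 0 while 17 of 18 ribosome biogenesis genes lie right of the upper dashed line. The lists were chosen with earlier results of these data known.

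Transcripts of a member did not always lie on the same side. Of the 62 members, 32 had a single listed transcript and 30 had several, up to 9. Among these 30, 15 had ratios on both sides of 1, and in 13 the leading transcript lay within the limit while another lay past it. In all, 55 members had a transcript in the authors' table of significant genes, 44 through the leading transcript and 11 through another, and 7 had none. Because the reads come from 3′ ends, transcripts of a gene that share an end cannot be separated by them, and 5 pairs of transcripts had ratios equal to a relative difference of 0.0001. The transcript names could not be placed on the annotation used here.

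Syncrip, Ube2k and Wnk1 had transcripts past the limit in both directions. Syncrip, an RNA-binding protein of the hnRNP family, had 7 transcripts. The leading one stood at 39.4 after ATP and 35.3 in control cells, another at 10.04 and 1.99, 5.04-fold higher, and another at 7.56 and 11.6, 1.53-fold lower. Of the stretches at its transcript ends, 21.01% also occur in Gm6501 or Gm20537. Wnk1 had 9 transcripts. One stood at 17.0 and 8.61, 1.97-fold higher, and another at 6.93 and 13.7, 1.97-fold lower, and the sum over all 9 was 1.03-fold higher. Ube2k had 8 transcripts, and the weakest of them stood at 1.6 and 2.42, 1.52-fold lower, against the higher leading one. Its next largest transcript after the leading one was 1.38-fold lower (16.7 and 22.9). The sum over all 8 was 1.41-fold higher, within the limit.

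Atp5b and Rps16 are abundant members whose transcripts parted. Atp5b, the beta subunit of the mitochondrial ATP synthase, had means of 157 after ATP and 184 in control cells in its leading transcript and 141 and 56.7 in another, 2.49-fold higher. Summed over its 4 transcripts it stood at 309 and 248, 1.24-fold higher. Rps16, a protein of the small ribosomal subunit, was 1.23-fold lower in its leading transcript (510 and 628) and 2.36-fold higher in a minor one (13.6 and 5.75). In both genes the total over the transcripts lay within the limit.

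**Figure D4:**
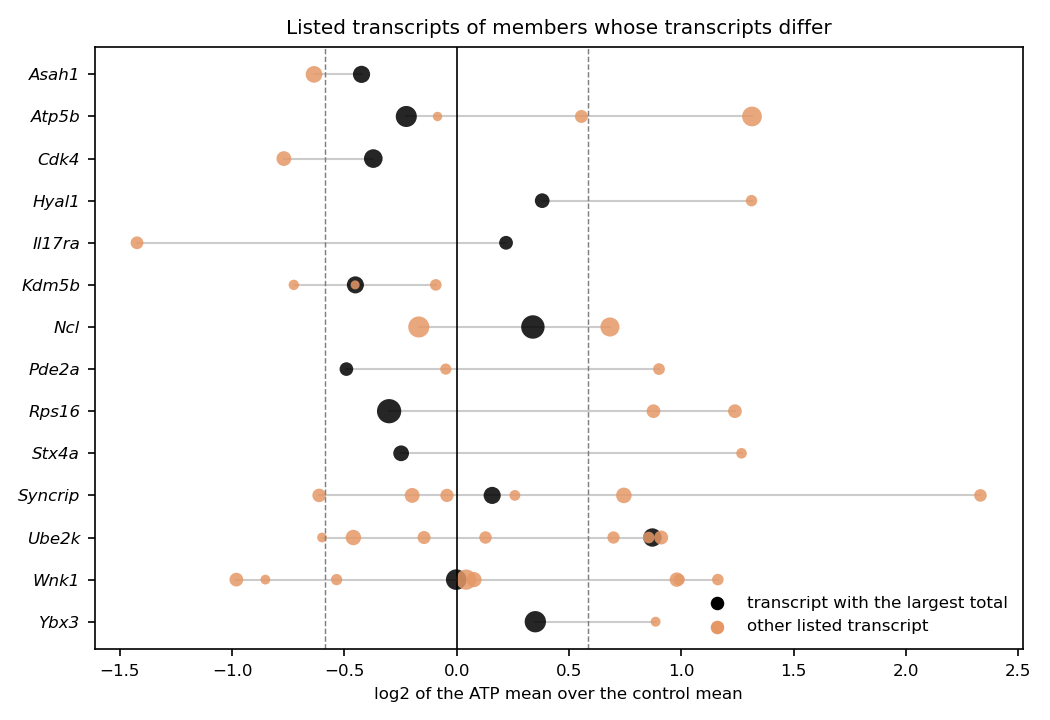
Log2 of the ATP mean over the control mean for each listed transcript of 14 members whose leading transcript lay within 1.5-fold while another lay past it, or whose transcripts lay past it both ways, with larger points for larger totals. Black points mark the transcript with the largest total, orange points the others, and Syncrip spans from 1.53-fold lower to 5.04-fold higher.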

How the data were processed

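Sequencing of 3′ transcript ends was done in 11 libraries, and the authors deposited 6 tables, of which the list of annotation terms was not used. The submitters' processing notes name Partek, with aligner, build and gene models not given in the sources used here. In the gliosis table the deposited values are estimated counts, and in the other 4 transcript tables the authors' values behave as a signal scaled for library depth. Each row holds a total over the libraries and a mean per group. For every member transcript the total equals the ATP mean times 6 plus the control mean times 5. The depth of single libraries is unknown. The tables also hold the authors' p-values, adjusted p-values, ratios and fold changes, which were not used.

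Ratios were computed from the group means (Python 3.11.15, pandas 2.3.3, numpy 2.4.6, matplotlib 3.10.9), with a limit of 1.5-fold, and the counting was tested on simulated data. No test across genes was run. The members, roles and gene lists were chosen with earlier results of these data known. Levels are given for members at least 1.5-fold apart, for those with transcripts past it in opposite directions and for those with the highest level, and for up to 4 genes per list and direction by largest fold; other values in the text were chosen after they were seen. Shared 3′ ends were searched in GENCODE M21 coding transcripts, over 50-base stretches of the last 300 bases. Alternatives were a limit of 2-fold, a pseudocount of 1, summed transcripts, transcripts of the significant table only, a minimum mean of 5 or 10, and the depth scaling undone.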

Additional observations from a re-analysis of the deposited data

How the results depend on the processing

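With a limit of 2-fold, 6 members were higher and 15 lower, against 18 and 27. With a mean of at least 10 in either group, 15 of 46 members were lower, and the median log2 ratio of the secreted and matrix proteins turned from -1.33 to 0.38 because Vegfc and Adamts7 fell below the minimum. With transcripts of the significant table only, the median of the transcription and chromatin genes was 0.69 in place of 0.00124, with fewer genes in it. This choice moved 9 single members by over 1.5 times and changed the sign of 7: Atp5b (1.32), Il17ra (-1.42), Pde2a (0.90), Rps16 (1.24), Stx4a (1.27), Syncrip (-0.61) and Wnk1 (0.98, all log2). Summing transcripts moved Birc2 (-0.60) and Il17ra (-0.42), and changed the sign of Il17ra, Atp5b (0.31) and Wnk1 (0.04). A pseudocount of 1 moved Tgtp1 and Gm4951. Undoing the depth scaling changed the sign of Wnk1 (0.21). The other group medians and counts stayed within 1.5 times. No paired analysis was possible because the tables hold group means only, and for the same reason no library could be left out. Means of a few units rest on few reads, and without values per library no difference has an error.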
